A study of Rattus norvegicus with 241 samples.

Results

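Mature luminal (ML) cells of the rat mammary gland were described in sorted luminal preparations from peripubertal ACI rats given a TGFBR inhibitor (TGFBRi) or vehicle. A cell was taken as mature luminal when its unique molecular identifiers (UMIs, 1 per captured RNA molecule) of CITED1, PRLR, NPTX2, AGTR1A and FCGBP summed to at least 2 and to at least 4 times its summed UMIs of KIT, ELF5, BTN1A1 and MUC15. The rule took 3639 of 6882 sorted ACI luminal cells (52.9%), and these were 2.27% of the 160052 cells in the 39 single-cell tables of the series. The same rule with the sums exchanged gave 2180 luminal progenitor (LP) cells, and 1063 cells met neither rule. Of these 1063, 764 carried at least 2 UMIs of both gene sets and 79 carried none of either.

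All 6 animals were virgin female ACI rats, an inbred strain prone to estrogen-induced mammary tumors. The 3 rats ACI12, ACI15 and ACI16 were treated with LY2157299 (galunisertib, a small molecule that blocks the kinase of TGFBR1, spelled LY22157299 in the labels) at 75 mg/kg by oral gavage, 2 doses daily for 10 days from 35 days of age. The 3 rats ACI7, ACI8 and ACI9 received vehicle on the same schedule, and glands were collected on day 0, when dosing stopped. CD24+CD29low cells without CD31 or CD45 were sorted and each rat gave 1 library, so that n counts rats throughout. Values per rat are given in the order ACI12, ACI15, ACI16 for TGFBRi and ACI7, ACI8, ACI9 for vehicle.

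Mature luminal cells line the ducts and are the hormone-sensing cells of the gland. Estrogen and progesterone act on their receptors ESR1 and PGR, and the cells answer with secreted factors such as amphiregulin, RANKL and WNT4 that act on neighboring cells. Luminal progenitors carry KIT and ELF5 and are the source of alveolar cells, which make milk. TGF-beta ligands bind TGFBR2, which activates TGFBR1, and SMAD2 and SMAD3 then enter the nucleus with SMAD4; the pathway restrains growth of the mammary epithelium and alveolar differentiation.

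The rats contributed 899, 577 and 633 ML cells with TGFBRi and 454, 689 and 387 with vehicle. Median UMIs per ML cell were 6080, 9640 and 7816 with TGFBRi and 14031, 8429 and 10187 with vehicle, and the summed UMIs per rat ranged from 4790375 to 8552550. The median mitochondrial share of UMIs was 8.63%, 8.25% and 8.16% with TGFBRi and 6.56%, 6.84% and 7.91% with vehicle, which did not overlap. The median ribosomal protein share was 18%, 20.2% and 20.4% against 16.1%, 15.8% and 17.3%, also without overlap. The part of these differences in the results below was not tested. The depth-matched alternative of the gene tests thinned the summed UMIs per rat and left the UMIs per cell and both shares as they were. No cell carried a PTPRC (CD45) UMI, since the authors had removed such cells, and 4 barcodes of ML cells occurred in 2 libraries. At the edges of the rule, 225 ML cells had a sum of only 2 or 3, 68 cells with a sum of 1 and no LP UMI stayed outside, and 89 cells had a ratio of 4 to under 6 while 223 with a ratio of 2 to under 4 stayed outside. No LP UMI at all was found in 3276 of the 3639 cells.

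The cells were chosen by the UMIs of the 9 genes of the rule, so the levels of these genes are a description and were not tested. In unscaled CPM (UMIs of a gene per 1000000 UMIs of the ML sum), PRLR, the prolactin receptor, stood at 817, 935 and 967 with TGFBRi and 1123, 1068 and 809 with vehicle. In the LP sums of the same rats PRLR stood at 17 to 64.2. CITED1, a transcriptional coactivator of estrogen receptor signaling, ranged from 383 to 672 in ML sums and from 0.891 to 4.11 in LP sums. AGTR1A, an angiotensin receptor, ranged from 43.6 to 77.2, NPTX2, a secreted pentraxin, from 25.1 to 81, and FCGBP, a mucus protein, from 55 to 285, all against at most 1.33 in LP sums. The LP genes KIT, ELF5, BTN1A1 and MUC15 reached 3.28 to 16.8 in ML sums and 157 to 425 in LP sums.

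Markers that the rule did not read had the same arrangement, again as a description, since they were measured in the chosen cells. ESR1, the estrogen receptor, stood at 41.5, 38.1 and 48.7 unscaled CPM with TGFBRi and 78.8, 77.9 and 65.8 with vehicle in ML sums, against 0.978 to 4.47 in LP sums. PGR, the progesterone receptor, ranged from 25.5 to 63.8 against 0 to 1.83. FOXA1, a pioneer factor for ESR1, ranged from 5.12 to 12.6 against 0 to 1.01, and SPDEF, an ETS factor, from 48.6 to 63.9 against 0.893 to 2.33. AREG, amphiregulin, ranged from 161 to 466 against 0.891 to 5.09. GATA3 and XBP1, which progenitors also use, were 3.17 and 4.82 times as high in ML as in LP sums (geometric means over 6 rats).

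**Figure D1:**
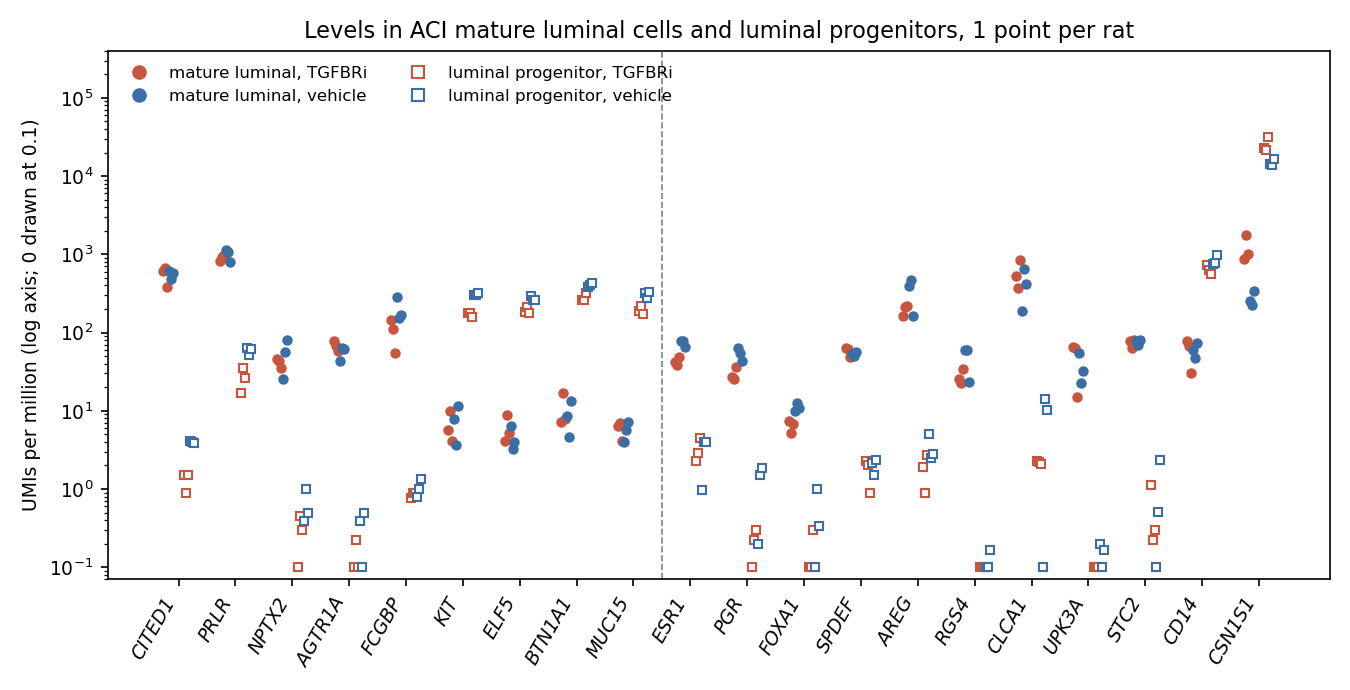
Unscaled CPM in ML cells (filled circles) and LP cells (open squares) of each of the 6 rats, TGFBRi in red and vehicle in blue, on a log axis with 0 drawn at 0.1. Left of the dashed line stand the 9 genes of the rule, right of it genes that the rule did not read; ESR1, PGR, FOXA1, SPDEF, AREG, RGS4, CLCA1, UPK3A and STC2 were higher in ML cells of every rat, CD14 and CSN1S1 in LP cells.

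Of 15586 genes, 745 (4.78%) were at least 4-fold higher in ML than in LP sums on average, higher in all 6 rats and backed by a mean of at least 20 UMIs per rat, and 571 met the same terms for LP sums. Outside the rule's genes, the highest ratio belonged to RGS4, a regulator of G-protein signaling, with 25.5, 22.8, 34.1, 59.4, 59.7 and 23 unscaled CPM in ML sums and no LP UMI in 5 of 6 rats. CLCA1, a secreted regulator of calcium-activated chloride conductance, reached 190 to 838 unscaled CPM in ML and at most 14.1 in LP sums. UPK3A, a urothelial plaque protein, varied from 15 to 66.1, and STC2, a secreted glycoprotein induced by estrogen, only from 63.3 to 81. Others among the leading 20 were SPEF2, SYTL2, ANTXR1, CTSE, ACSM3, RMT1, CAPN8, TESC, AREG, MFSD6L, SMIM31, TIFA, BEND5 and FOXP2. They cover vesicle transport (SYTL2), an aspartic protease (CTSE), an EGF receptor ligand (AREG) and a forkhead factor (FOXP2).

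Markers of other cells were scarce in ML sums. Summed over 11 basal markers (KRT5, KRT14, ACTA2, TP63 and others) ML cells held 10.4 to 28.8 unscaled CPM, over 8 fibroblast markers 1.5 to 3.29, and over 6 endothelial markers 0.273 to 1.15. OXTR, COL1A2, LUM and TIE1 had no UMI in ML sums, and PTPRC had none by the authors' filter. The 6 leukocyte markers in the table summed to 8.9, 7.89 and 4.78 with TGFBRi and 22.8, 9.43 and 31.1 with vehicle, most of it CD74. LP markers outside the rule, led by milk proteins, summed to 2429, 3909 and 2504 with TGFBRi and 933, 767 and 1247 with vehicle, without overlap. In LP sums of the same rats these markers stood at 54102 to 69279 with TGFBRi and 35762 to 40212 with vehicle. In the basal sorts of the same 6 rats, the rule took 0.311% to 1.31% of cells.

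Whether TGFBRi altered the share of ML cells was compared over rats. ML cells made up 57.9%, 47.6% and 56.2% of the sorted luminal cells with TGFBRi (mean 53.9% ± 5.52, SD, n = 3) and 51.8%, 68.2% and 35.1% with vehicle (51.7% ± 16.5, SD, n = 3). The vehicle rats enclosed the treated rats. The difference of 2.23 percentage points was smaller than the spread between rats (exact two-sided permutation test over 3 and 3 rats, p = 0.8; the smallest p this design allows is 0.1). Its sign turned under a stricter rule, to -1.06 points, and without vehicle rat ACI9, to -6.06 points.

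In ML cells, 3437 of 12780 genes tested (26.9%) passed an adjusted p of 0.1 for TGFBRi against vehicle (edgeR quasi-likelihood test on UMIs summed per rat, Benjamini-Hochberg adjustment), 1844 higher (14.4%) and 1593 lower (12.5%) with TGFBRi, the shares against which counts of genes in a list are read. Their median absolute log2 fold change was 0.54, and 462 reached 2-fold, 200 higher and 262 lower. The lists were chosen with earlier results of these data known, so a list count above the shares of all genes is a description. Levels below are CPM scaled by TMM factors, unless called unscaled, and ± is the SD over 3 rats of a group. The factors were 0.967, 0.921 and 0.882 with TGFBRi and 1.11, 1.03 and 1.12 with vehicle, without overlap. Scaling thus raised the levels of treated rats and lowered those of vehicle rats, which weighs most in small rises such as those of SPDEF and CCND1. With DESeq2 size factors in place of TMM, 3444 genes passed. The groups did not overlap for 37.2% of all genes tested. Without vehicle rat ACI7, whose cells were the deepest, 1837 genes passed. Standard errors of log2 fold changes (SE) were taken as the fold change divided by the square root of its F statistic.

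Several hormone receptor genes fell in ML cells with TGFBRi. Of 6 hormone receptors tested outside the rule, 4 fell and none rose, where 12.5% of all genes were called lower. ESR1 stood at 42.9, 41.4 and 55.3 CPM with TGFBRi and 71, 75.9 and 58.9 with vehicle. No treated rat reached the lowest vehicle rat, and ESR1 fell by 0.57 on the log2 scale (SE 0.14, adjusted p = 0.014). PGR, a classical target of estrogen receptor, stood at 27.6, 27.7 and 41.5 against 57.5, 52.9 and 39.1 CPM. Here the highest treated rat overlapped the lowest vehicle rat, and PGR fell by 0.65 (SE 0.18, adjusted p = 0.025), a call lost without vehicle rat ACI7. GHR, the growth hormone receptor, fell from 23 to 11.3 CPM (log2 fold change -1.05 ± 0.23, SE, adjusted p = 0.0089). After thinning to equal UMIs per cell, 3.48%, 4.66% and 3.2% of ML cells carried GHR against 13%, 9.1% and 5.22% with vehicle. In LP cells, where GHR was more frequent in every rat, the shares were 8.72%, 11.4% and 8.52% against 16.7%, 18.5% and 21.1%. IGF1R also fell by 0.87 (adjusted p = 0.076), at 1.36 to 2.99 against 3.73 to 4.11 CPM, a call lost under 6 of 14 alternatives. Without vehicle rat ACI7, 2 receptors fell.

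Of 11 ML markers outside the rule, 5 fell and 1 rose (median -0.38), where 12.5% of all genes were called lower. These 5 include ESR1 and PGR, already counted among the receptors. Without ACI7 or ACI8, 3 fell and none rose, with a median of -0.23 without ACI8. XBP1, a transcription factor of secretory and estrogen-responsive cells, was at 97.6 ± 7.57 CPM (SD, n = 3) with TGFBRi and at 199, 259 and 240 with vehicle. Every treated rat lay well below the lowest vehicle rat, and XBP1 fell by 1.25 (SE 0.12, adjusted p = 0.00044). XBP1 also fell in LP cells of the same rats, by 0.71 (SE 0.14, adjusted p = 0.0051). The fall was larger in ML cells (difference of log2 fold changes -0.53 ± 0.15, SE, adjusted p = 0.079). GATA3, which maintains luminal identity, stood at 277, 343 and 259 against 400, 395 and 351 CPM and fell by 0.38 (adjusted p = 0.054). FOXA1 stood at 7.7, 5.57 and 7.66 against 8.96, 12.2 and 9.72 CPM and fell by 0.57 (adjusted p = 0.073). Neither group pair overlapped, though the GATA3 call was lost under 3 and the FOXA1 call under 5 of 14 alternatives. GATA3 did not pass in LP cells (log2 fold change -0.03 ± 0.12, SE, adjusted p = 0.89). Its difference between ML and LP cells did not pass either (-0.37 ± 0.14, SE, adjusted p = 0.23). After thinning to equal UMIs per cell, 24.4%, 27.5% and 26.5% of LP cells carried GATA3 against 36.8%, 31.2% and 36.3% with vehicle. SPDEF rose, at 66.1, 66.6 and 55.1 against 48.4, 48.6 and 49.9 CPM (log2 fold change 0.36 ± 0.11, SE, adjusted p = 0.039, lost when ACI12, ACI15, ACI7 or ACI8 was left out).

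Among 10 tested hormone-regulated and paracrine genes, 5 fell and 1 rose (median -0.50), where 12.5% of all genes were called lower. Without ACI7, 3 fell and 1 rose. Without ACI8, 4 fell and none rose (median -0.25). WNT5A, a secreted Wnt ligand, was at 5.28, 5.12 and 7.66 CPM with TGFBRi and 11.9, 17 and 11 with vehicle and fell by 1.17 (SE 0.23, adjusted p = 0.0058). CXCL12, a chemokine, fell from 133 to 89.8 CPM (log2 fold change -0.57 ± 0.15, SE, adjusted p = 0.021). CCND1, cyclin D1, was the gene that rose (log2 fold change 0.34, adjusted p = 0.054), at 760 to 803 against 591 to 675 CPM, a call lost when ACI15, ACI8 or ACI9 was left out. AREG was at 166, 227 and 248 CPM with TGFBRi and 355, 454 and 144 with vehicle. Vehicle rat ACI9 lay below all treated rats, and AREG did not pass (log2 fold change -0.58 ± 0.30, SE, adjusted p = 0.21).

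**Figure D2:**
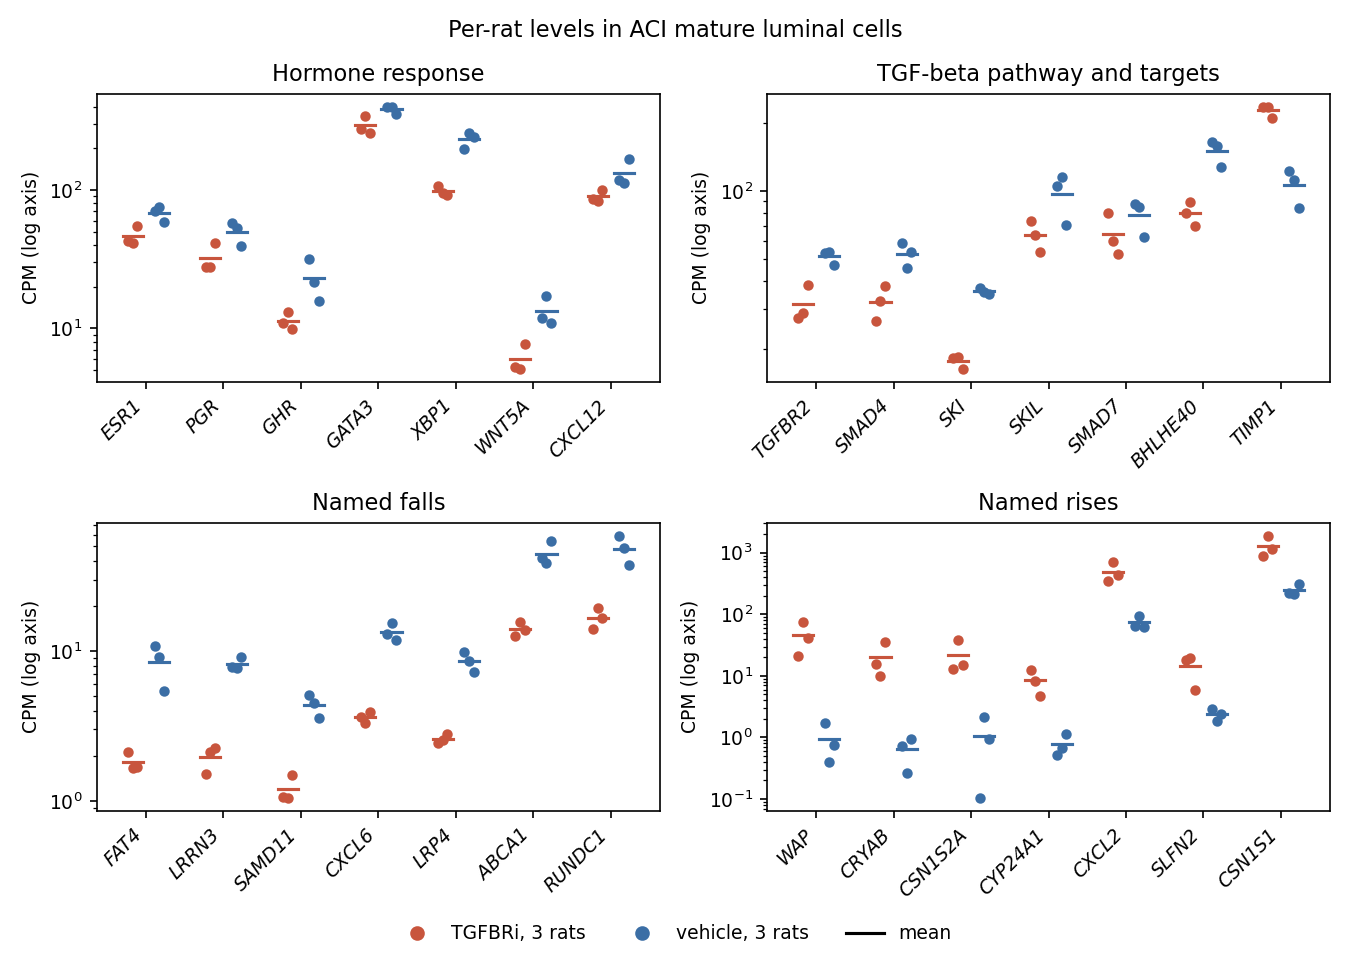
CPM in ML cells on log axes, 1 point per rat, with TGFBRi in red, vehicle in blue and a line at the mean of 3 rats. The groups do not overlap for XBP1 (97.6 ± 7.57 with TGFBRi, 233 ± 30.5 with vehicle, SD), SKI, ABCA1, CXCL6 or WAP, and they overlap for PGR, SKIL and SMAD7.

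Of 9 TGF-beta ligands, receptors and SMADs tested, 2 fell and none rose (median -0.04), and of 10 feedback genes 2 fell and 1 rose, both near the 26.9% of all genes called. TGFBR2, the ligand-binding receptor, stood at 27.5, 29 and 38.3 CPM with TGFBRi and 53.3, 53.8 and 47.1 with vehicle and fell by 0.71 (SE 0.14, adjusted p = 0.0052). SMAD4, the shared SMAD, stood at 26.6, 32.6 and 38.1 against 58.8, 45.7 and 54 CPM and fell by 0.71 (SE 0.14, adjusted p = 0.0072). For both genes every treated rat lay below every vehicle rat. Among the feedback genes, SKI, a corepressor of SMAD complexes, was at 18.3, 18.4 and 16.4 against 37.3, 35.9 and 34.9 CPM, and the treated rats stood well below all vehicle rats (log2 fold change -1.03 ± 0.12, SE, adjusted p = 0.0006). Its relative SKIL fell by 0.61 (adjusted p = 0.028), lost without vehicle rat ACI7 or ACI8, and the homeobox repressor TGIF1 rose by 0.42 (adjusted p = 0.028), lost without ACI12 or ACI7. SMAD7, the inhibitory SMAD, stood at 80.2, 60.2 and 52.7 against 87.5, 84.8 and 62.4 CPM and did not pass (log2 fold change -0.28 ± 0.16, SE, adjusted p = 0.25).

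Of 14 TGF-beta target genes tested, 3 rose and 3 fell (median -0.03), where 14.4% of all genes were called higher and 12.5% lower. BHLHE40, a transcriptional repressor, fell from 150 to 79.9 CPM (log2 fold change -0.91 ± 0.13, SE, adjusted p = 0.0015). JUNB, an AP-1 subunit, fell by 0.54 (adjusted p = 0.055) and ITGB6, an integrin that activates latent TGF-beta, by 1.42 (adjusted p = 0.094), calls lost under 3 and 7 of 14 alternatives. TIMP1, a metalloprotease inhibitor, rose, at 236, 235 and 210 against 123, 112 and 83.9 CPM (log2 fold change 1.09 ± 0.14, SE, adjusted p = 0.00088). LTBP2, a latent TGF-beta binding protein, rose by 1.53 (adjusted p = 0.051), a call lost under 6 of 12 alternatives. None of 4 ID genes, targets of BMP signaling, passed the test.

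Milk protein genes rose, where 14.4% of all genes were called higher. GLYCAM1 is not counted, since its 10 UMIs all came from treated rats and it met the UMI minimum only through them. The other 7 tested members passed in the upward direction. CSN1S1, alpha-S1-casein, stood at 900, 1892 and 1140 CPM with TGFBRi and 226, 217 and 308 with vehicle (log2 fold change 2.39 ± 0.24, SE, adjusted p = 0.00049). LALBA, the lactose synthase subunit, stood at 682, 990 and 712 against 168, 152 and 238 CPM (2.10 ± 0.19, SE, adjusted p = 0.00035). In both genes the lowest treated rat was over the highest vehicle rat by a wide margin. CSN3, kappa-casein, rose by 2.06 (adjusted p = 0.0019) and CSN1S2B by 2.07 (adjusted p = 0.0011), the latter not in cells without any LP UMI. WAP, whey acidic protein, was at 20.8, 75.8 and 41.6 against 1.69, 0.399 and 0.747 CPM (5.47 ± 0.54, SE, adjusted p = 0.00044). CSN1S2A was at 13, 38.2 and 14.9 against 0.105, 2.13 and 0.934 CPM (4.46 ± 0.58, SE, adjusted p = 0.0011). CSN2, beta-casein, was scarce and uneven, with 1.21, 17.5 and 1.31 against 0.211, 0.133 and 1.31 CPM, and its call (3.84, adjusted p = 0.029) was lost under 4 of 13 alternatives.

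The stretches of 250 bases before the RefSeq starts of the 4 casein genes that hold a match are shown, because prolactin acts on casein genes through STAT5, which binds palindromes of the form TTCNNNGAA. Matches to TTCNNNGAA, which reads the same on both strands, are in capitals. The build is GRCr8 (the expression tables were made on rn6). The stretches are CSN1S1 at chr14:20638850-20639099, CSN1S2A at chr14:20574472-20574721 and CSN1S2B at chr14:20545619-20545868, all on the minus strand, and CSN2 at chr14:20601574-20601823 on the plus strand. Each is printed 5′ to 3′ toward the gene.
CSN1S1: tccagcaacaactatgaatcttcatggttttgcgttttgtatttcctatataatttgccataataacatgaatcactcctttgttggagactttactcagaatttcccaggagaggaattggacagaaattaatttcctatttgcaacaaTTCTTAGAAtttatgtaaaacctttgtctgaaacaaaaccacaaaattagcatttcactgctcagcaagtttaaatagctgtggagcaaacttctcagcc
CSN2: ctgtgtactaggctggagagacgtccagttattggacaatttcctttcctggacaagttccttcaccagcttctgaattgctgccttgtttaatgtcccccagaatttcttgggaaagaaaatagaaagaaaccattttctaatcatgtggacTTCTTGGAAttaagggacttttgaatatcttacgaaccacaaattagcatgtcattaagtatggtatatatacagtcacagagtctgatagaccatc
CSN1S2A: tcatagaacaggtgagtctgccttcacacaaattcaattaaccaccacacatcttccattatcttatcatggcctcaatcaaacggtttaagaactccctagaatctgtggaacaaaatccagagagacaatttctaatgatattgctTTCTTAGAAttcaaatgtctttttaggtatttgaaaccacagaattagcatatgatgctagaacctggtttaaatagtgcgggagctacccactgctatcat
CSN1S2B: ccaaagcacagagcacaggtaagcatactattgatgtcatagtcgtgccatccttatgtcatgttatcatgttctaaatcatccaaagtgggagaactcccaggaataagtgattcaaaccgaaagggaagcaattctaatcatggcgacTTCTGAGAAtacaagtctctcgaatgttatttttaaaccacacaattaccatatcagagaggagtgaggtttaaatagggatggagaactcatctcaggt
The match began 100, 97 and 100 bases before the start in CSN1S1, CSN2 and CSN1S2B, and a few bases farther out in CSN1S2A. Of 9 milk protein genes with a RefSeq promoter, 5 held a match in this window (GLYCAM1 was the other, at 175 bases), and none was found in those of CSN3, LALBA, WAP or LTF. Of all 33469 promoters in the table, 7.67% held one in the same window. A match is a description of letters and was not tested for binding.

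The milk RNA of ML cells stood beside much higher levels in LP cells of the same rats. CSN1S1 was at 22896, 21436 and 31265 unscaled CPM in LP sums with TGFBRi and 14102, 13839 and 16458 with vehicle, so that the ML level was 0.038, 0.0812 and 0.0321 of the LP level with TGFBRi and 0.0178, 0.0161 and 0.0209 with vehicle. For LALBA these ratios were 0.0405, 0.0636 and 0.0378 against 0.0192, 0.0154 and 0.0267, and the groups did not overlap for either gene. For CD14, another LP marker, the ratios were 0.107, 0.108 and 0.0546 against 0.0793, 0.0607 and 0.0748 and overlapped. Of 9 tested LP markers outside the rule, milk genes among them, 7 rose and none fell in ML cells (median 1.37). Of all genes, 14.4% were called higher. After each ML cell was thinned to 4061 UMIs, the top 5% of cells held 60.9% to 76.4% of all CSN1S1 UMIs in a rat. MFGE8, also an LP marker, averaged 1.02, 1.17 and 0.852 UMIs per thinned cell against 0.482, 0.427 and 0.723. LBP, another LP marker, was found in 9.32%, 11.6% and 8.42% of thinned cells against 5.38%, 3.28% and 7.05%. In ML cells without any LP UMI, CSN1S1 rose by 1.80 (adjusted p = 0.0016), LALBA by 2.27 (adjusted p = 0.0004) and WAP by 3.10 (adjusted p = 0.0027), and 5 of 7 milk genes passed. Without the cells of highest doublet score, CSN1S1 rose by 2.80 (adjusted p = 0.0015) and 7 of 7 passed. Free RNA in the droplets was not measured here, and its part was not tested.

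The rises of largest size outside the milk genes, taken by a rule on fold change, overlap and depth, were CRYAB, CYP24A1, CXCL2, CSF3, SLFN2, THRSP and PTX3. The depth was a mean over all 6 rats, which CRYAB, CYP24A1 and SLFN2 reached through the treated rats, so the list is a description. CRYAB, a small heat shock protein, was at 15.4, 9.78 and 35.7 CPM with TGFBRi and 0.738, 0.266 and 0.934 with vehicle (log2 fold change 4.95 ± 0.57, SE, adjusted p = 0.00064). CXCL2, a neutrophil-attracting chemokine, was at 342, 705 and 434 against 65.6, 92.7 and 62.8 CPM (2.74 ± 0.24, SE, adjusted p = 0.00035). Both groups of rats were apart by several fold in these 2 genes. CYP24A1, the vitamin D hydroxylase, rose by 3.53 (adjusted p = 0.00075) and THRSP, a regulator of milk fat synthesis, by 2.52 (adjusted p = 0.00075). SLFN2 rose by 2.58 (adjusted p = 0.0023), CSF3, a granulocyte growth factor, by 2.61 (adjusted p = 0.012) and the pentraxin PTX3 by 2.43 (adjusted p = 0.0034). The CYP24A1 call was lost in cells without any LP UMI, the CSF3 call without the cells of highest doublet score and the PTX3 call under the stricter rule. Over 14 alternatives the log2 fold change ranged from 3.18 to 6.3 for CRYAB, 1.56 to 3.82 for CYP24A1 and 1.18 to 2.91 for SLFN2. It ranged from 1.6 to 4.43 for CSF3 and 1.59 to 3.63 for PTX3. HBEGF, an EGF receptor ligand, was at 222, 232 and 327 against 92.8, 84.9 and 51.9 CPM and rose by 1.76 (SE 0.20, adjusted p = 0.00064). CXCL2 and HBEGF were found in larger shares of LP than ML cells. CXCL2 was in 86.6%, 88.1% and 88.3% of thinned LP cells with TGFBRi and 71.2%, 76.1% and 51.7% with vehicle. In thinned ML cells it was in 15.4%, 16.8% and 16.5% against 6.28%, 5.52% and 6.53%. HBEGF was in 82.8%, 80% and 75.4% against 70.5%, 58.5% and 55.5% of thinned LP cells. In ML cells it was in 31.7%, 31% and 36.5% against 17.3%, 14.5% and 11.2%. The part of free RNA in these rises was not tested.

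Among the falls of largest size were FAT4, LRRN3, CXCL6, SAMD11, LRP4, ABCA1, SLC7A2, GARNL3 and RUNDC1, the scarcest of which reached the depth through the vehicle rats. FAT4, a giant protocadherin of the Hippo and planar polarity pathways, was at 2.11, 1.65 and 1.68 CPM with TGFBRi and 10.9, 9.19 and 5.42 with vehicle (log2 fold change -2.24 ± 0.31, SE, adjusted p = 0.0014). Every treated rat lay below every vehicle rat, and the vehicle rats spread more widely. ABCA1, the cholesterol efflux transporter, was at 12.7, 15.6 and 13.8 against 41.8, 38.7 and 54 CPM (-1.66 ± 0.15, SE, adjusted p = 0.00035). CXCL6, a chemokine, was at 3.62, 3.31 and 3.92 against 13.1, 15.3 and 11.8 CPM (-1.89 ± 0.20, SE, adjusted p = 0.00049). LRP4, a Wnt and agrin co-receptor, fell by 1.74 (adjusted p = 0.0013), the leucine-rich repeat protein LRRN3 by 2.07 (adjusted p = 0.00075) and RUNDC1 by 1.55 (adjusted p = 0.0006). SAMD11 fell by 1.89 (adjusted p = 0.0037), GARNL3 by 1.60 (adjusted p = 0.016) and SLC7A2, an arginine transporter, by 1.62 (adjusted p = 0.018, lost without vehicle rat ACI7).

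Structural and growth genes moved in smaller steps. Their counts stand beside the 14.4% of all genes called higher and 12.5% lower. Of 4 luminal keratins, KRT8, KRT18 and KRT7 rose. KRT8 stood at 3114, 2548 and 3052 CPM with TGFBRi and 1553, 1964 and 1300 with vehicle (log2 fold change 0.85 ± 0.16, SE, adjusted p = 0.0049), and KRT18 rose by 0.57 (adjusted p = 0.017) and KRT7 by 0.50 (adjusted p = 0.026). Of 11 junction genes, 3 rose and 2 fell, where 26.9% of all genes were called in either direction. DSP, desmoplakin, fell from 306 to 187 CPM (-0.71, adjusted p = 0.0098) and TJP1, a tight junction scaffold, from 134 to 96.3 CPM (-0.48, adjusted p = 0.0084), while CLDN1, a claudin, rose by 1.52 (adjusted p = 0.019, lost under DESeq2) at 0.747 to 3.17 CPM. The calls of CLDN7 and OCLN were lost under 6 and 9 of 14 alternatives. Of 7 CDK inhibitors and D cyclins, 4 rose and none fell, but 1 rose without ACI15 or ACI9 and 2 rose without ACI12, ACI7 or ACI8 or with DESeq2. CDKN1A (p21), a brake on the cell cycle, was at 125, 90.6 and 112 against 64.4, 58.8 and 47.1 CPM (log2 fold change 0.94 ± 0.14, SE, adjusted p = 0.0024). The calls of CDKN2C and CCND3, another inhibitor and D cyclin, were each lost under 10 of 14 alternatives.

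Cell cycle genes gave no uniform direction. Of 41 S phase genes 3 rose and 5 fell, and of 50 G2/M genes 3 rose and 2 fell, where 14.4% of all genes were called higher and 12.5% lower. Cells with UMIs of at least 2 of 91 cycle genes after thinning each cell to 4061 UMIs made up 94.2%, 94.3% and 90.1% of the thinned ML cells with TGFBRi and 95.7%, 94.6% and 96.6% with vehicle. Shallower cells were left out of these and the following shares, unevenly between groups, namely 180, 19 and 39 ML cells with TGFBRi and 8, 19 and 4 with vehicle. Over all ML cells with no thinning, the shares were 95.6%, 98.8% and 96.5% against 99.3%, 99.1% and 99.7%. The groups did not overlap (difference after thinning -2.83 percentage points, exact two-sided permutation test over 3 and 3 rats, p = 0.1, the smallest this design allows), and nearly all cells met this definition. Without treated rat ACI16 the difference was -1.45 points. With at least 3 of these genes the shares were 81.1%, 79% and 72.6% against 85.9%, 84.9% and 87.7%, a difference of -8.62 points (exact permutation test, p = 0.1). A narrower definition, chosen after seeing the data, asked for at least 2 of 9 mitotic genes and held 3.62%, 3.58% and 0.673% of thinned cells with TGFBRi and 3.14%, 1.04% and 1.57% with vehicle. These overlapped (difference 0.708 points, exact permutation test, p = 0.6).

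Response programs gave uneven counts. Of 10 genes of the integrated stress response, 6 rose and 1 fell (median 0.79), where 14.4% of all genes were called higher. ATF4, its central transcription factor, was at 894, 922 and 1010 CPM with TGFBRi and 553, 726 and 466 with vehicle (log2 fold change 0.69 ± 0.15, SE, adjusted p = 0.0098). DDIT3 (CHOP) rose by 0.64 (adjusted p = 0.02), and ATF5 was the member that fell, from 7.72 to 3.52 CPM (-1.14, adjusted p = 0.0055). Without treated rat ACI12, 3 rose and 1 fell (median 0.49). Of 15 cholesterol synthesis genes, 7 rose and none fell, also beside 14.4% (median 0.52, which was 0.19 without ACI15, 0.26 without ACI9 and 0.82 without ACI7). IDI1, an isoprenoid enzyme, was at 89.2, 220 and 158 against 74.1, 62.2 and 37.7 CPM (1.41 ± 0.28, SE, adjusted p = 0.0068), MSMO1 rose by 1.81 (adjusted p = 0.0065) and INSIG1, a sterol sensor, by 1.79 (adjusted p = 0.0084). Treated rat ACI15 held the highest value of all 3 genes, and without it 5 rose. In ML cells of SD rats, none of the 15 rose and 3 fell (median -0.18), where 16.2% of all genes were called higher and 15.6% lower. The difference between strains (median 0.98, ACI minus SD) passed the test for none of the 15.

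Of 8 glucocorticoid-responsive genes, 5 rose and 1 fell (median 0.51), where 14.4% of all genes were called higher and 12.5% lower. ZBTB16, a zinc finger repressor, was at 46.2, 24.1 and 52.9 CPM with TGFBRi and 5.48, 10.9 and 7.47 with vehicle (log2 fold change 2.37 ± 0.29, SE, adjusted p = 0.00075). FKBP5, a chaperone of steroid receptors, was scarce, at 3.32, 3.31 and 3.36 against 0.527, 0.666 and 0 CPM (2.87 ± 0.52, SE, adjusted p = 0.0043), and did not pass with DESeq2. PER1, a clock gene, was the member that fell, from 11.4 to 5.74 CPM (-0.99, adjusted p = 0.0051). Without vehicle rat ACI7 or ACI9, 2 genes of the list rose. Of 12 clock genes, 1 rose and 2 fell, near the 26.9% of all genes called. NR1D1 rose from 7.04 to 16.2 CPM (1.19, adjusted p = 0.0011) while PER1 and ARNTL fell, ARNTL by 0.62 (adjusted p = 0.023). The hour of collection is not given in the sources used here.

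Immediate early genes, which tissue dissociation induces, took 47916 to 49579 unscaled CPM of the ML sums with TGFBRi and 58506 to 79474 with vehicle, without overlap, and their part in other results was not tested. Of 18 tested, 2 rose and 5 fell (median -0.28), where 14.4% of all genes were called higher and 12.5% lower. Without ACI8, 3 rose and 1 fell (median -0.12), without ACI16, 2 rose and 1 fell, without ACI12, ACI15 or ACI7, 2 or 3 fell, and without ACI9, 7 fell (median -0.43). EGR1 was at 2275, 2204 and 2280 CPM against 2856, 3945 and 2376 (log2 fold change -0.44 ± 0.17, SE, adjusted p = 0.085), and FOS fell by 0.40 (adjusted p = 0.099). These calls were lost under 7 and 8 of 14 alternatives. MYC fell from 78.9 to 55.8 CPM (-0.50, adjusted p = 0.024). The 9 heat shock chaperones, also raised by handling, gave no call.

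**Figure D3:**
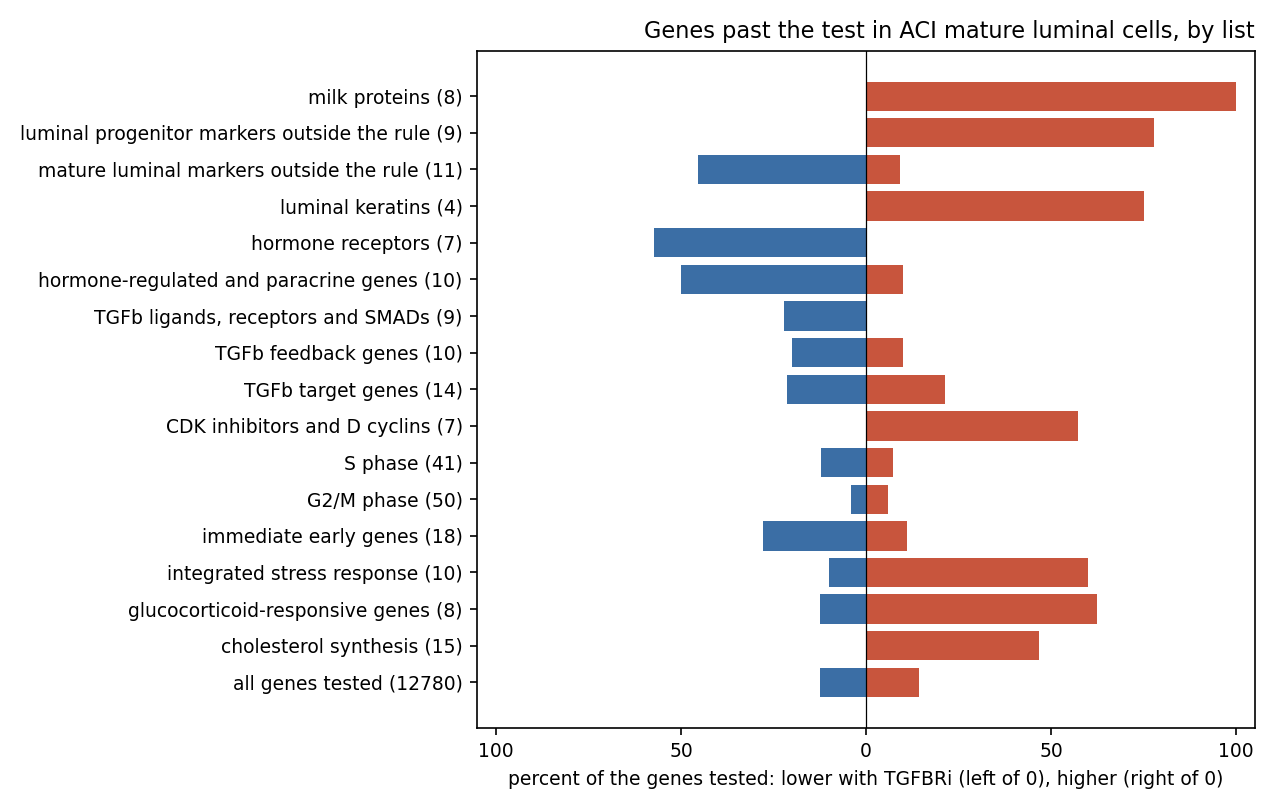
Share of the tested genes of each list (number in brackets) that passed the test in ML cells, lower with TGFBRi to the left in blue and higher to the right in red. The lowest bar gives all 12780 genes, 12.5% lower and 14.4% higher; the milk protein bar includes GLYCAM1, which had UMIs in treated rats only, and the hormone receptor bar includes PRLR of the rule.

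Whether TGFBRi acted differently on ML cells than on LP cells of the same rats was tested as an interaction with the rat as a block. It passed for 437 of 13473 genes (3.24%), 229 (1.7%) with the higher fold change in ML cells and 208 (1.54%) with the lower. Without the block, 29 genes passed, and WAP, CYP24A1 and TIMP1 were those of 26 named calls that passed under all 8 alternatives. None of these 8 changed the choice of cells. The difference was not tested in cells without any LP UMI, where the CYP24A1 rise in ML cells was lost. The deviations of ML and LP sums correlated best within the same rat in all 6 rats (0.242 to 0.468 over 5298 genes). Deviations were taken from the mean of each group of 3 rats. A positive correlation within a rat therefore lowers those with the other rats of its group, which favors this ranking. LP levels below are CPM of a fit of the LP sums.

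CXCL6 moved in opposite directions. It fell in ML cells, from 13.1, 15.3 and 11.8 to 3.62, 3.31 and 3.92 CPM, and rose in LP cells, from 2.92, 7.97 and 2.03 to 12.5, 8.67 and 33.6 CPM. The difference of the log2 fold changes was -4.12 ± 0.41 (SE, adjusted p = 7.5e-06). CXCL3, a related chemokine, rose in LP cells by 2.60 and stood at 87.4 ± 20.2 with TGFBRi and 84.8 ± 57.8 CPM with vehicle in ML cells (difference -2.50 ± 0.16, SE, adjusted p = 3.6e-09). TIMP1 rose in both, from 305 to 1787 CPM on average in LP cells, by less in ML cells (difference -1.47 ± 0.13, SE, adjusted p = 1.6e-06). The cytokines CSF1 and CLCF1 and the ubiquitin-ligase gene NEURL3 also had the lower fold change in ML cells (differences of -1.79, -1.79 and -1.51). So did the mitotic genes ASPM, UBE2C, HMMR and KIF23 (-2.16, -2.05, -1.68 and -1.51). UBE2C rose in LP cells from 1.99 to 9.65 CPM and stood at 11.1 ± 4.14 against 11.4 ± 3.49 CPM in ML cells, while ASPM fell in ML cells from 12.9 to 4.7 CPM. All 4 mitotic calls were lost without treated rat ACI12 or ACI16, and also without the block or with DESeq2.

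Milk genes rose by more in ML cells, from far lower levels. The difference of log2 fold changes was 3.24 ± 0.57 for WAP (SE, adjusted p = 0.0029), 1.23 ± 0.20 for CSN1S1 (adjusted p = 0.0018) and 1.09 ± 0.16 for LALBA (adjusted p = 0.0006). The CSN1S1 and LALBA calls were lost without the block, and the CSN1S1 call also with DESeq2. Of 8 milk genes, GLYCAM1 included, 5 passed, beside 1.7% of all genes with the higher fold change in ML cells. CYP24A1 also rose by more in ML cells, rising in LP cells from 86.4, 115 and 119 to 247, 174 and 190 CPM and in ML cells from 0.771 to 8.44 CPM (difference 2.53 ± 0.34, SE, adjusted p = 0.00023). FUT8, a fucosyltransferase that also modifies TGF-beta receptors, moved in opposite directions, from 15.2 to 31.1 CPM in ML cells and from 29.6 to 16.1 CPM in LP cells (difference 1.94 ± 0.20, SE, adjusted p = 1.6e-05). CCN2, a TGF-beta target, fell in LP cells by 2.19 (adjusted p = 0.0006) and stood at 4.53, 1.2 and 0.187 against 1.37, 0.799 and 0.187 CPM in ML cells (difference 3.21 ± 0.67, SE, adjusted p = 0.012, lost without ACI12, without the block and with DESeq2). Of 15 cholesterol genes, 4 rose by more in ML cells, also beside 1.7% of all genes. Among them was IDI1 (difference 1.31 ± 0.21, SE, adjusted p = 0.0012). APOE, a lipid carrier that progenitors hold at 1223 to 1856 CPM, rose in ML cells from 51.2, 33.9 and 48 to 117, 115 and 89.8 CPM (difference 1.14, adjusted p = 0.001). Its rise in ML cells (1.27, adjusted p = 0.00075) was lost in cells without any LP UMI.

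ABCA1 fell in both classes, by more in ML cells (difference -1.04 ± 0.15, SE, adjusted p = 0.0006). TGFBR2 fell in ML cells and stood at 11.6 ± 3.16 against 12.3 ± 2.41 CPM in LP cells (difference -0.72, adjusted p = 0.092), a call lost under 6 of 8 alternatives. For SKI (difference 0.12 ± 0.21, SE, adjusted p = 0.89) and KRT8 (0.06 ± 0.10, SE, adjusted p = 0.87) the difference did not pass. ESR1 and PGR were too scarce in LP cells, at most 5.31 and 1.59 CPM, to place the difference closely (-1.09 ± 0.43 and 1.52 ± 1.03, SE).

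**Figure D4:**
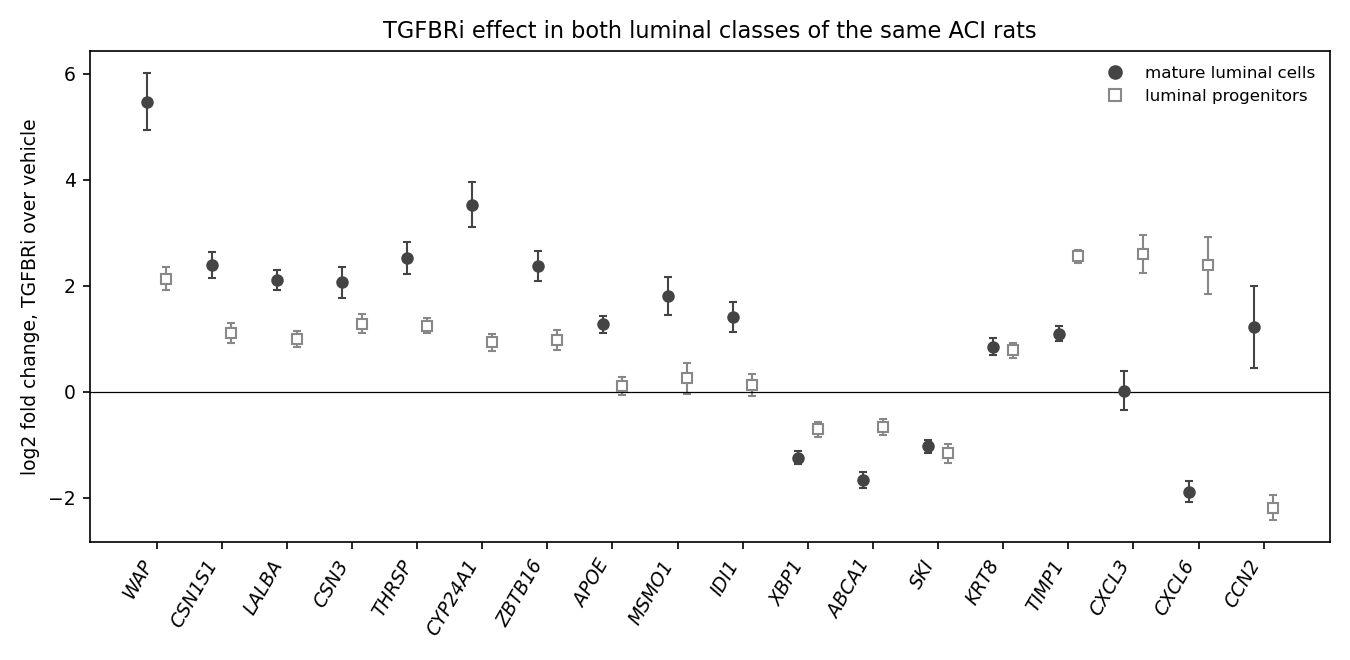
Log2 fold changes of TGFBRi over vehicle with standard errors for 18 genes in ML cells (filled circles) and LP cells (open squares) of the same 6 rats. CXCL6 is below 0 in ML and above 0 in LP cells, and SKI and KRT8 lie close together. Milk genes have higher fold changes in ML cells, from far lower levels.

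The same rule was applied to sorted luminal cells of outbred Sprague Dawley (SD) rats, virgin females given TGFBRi from 24 days of age (6 rats) or vehicle (3 rats), and took 6881 ML cells. There 4250 of 13365 genes (31.8%) passed, 2168 higher (16.2%) and 2082 lower (15.6%). Markers of other cells and of division also rose in these SD sums, namely 3 of 8 fibroblast markers (median log2 fold change 6.22), 3 of 9 basal markers (1.45), 33 of 50 G2/M genes (2.01) and 23 of 41 S phase genes (0.88), and their part in the values below was not tested. Of 12494 genes tested in both strains, 3421 passed in ACI and 4186 in SD rats. A total of 1975 passed in both in the same direction, 57.7% of the ACI and 47.2% of the SD calls, 1051 higher and 924 lower, and 28 passed in opposite directions. Of all genes tested in both, 33.5% were called in SD rats. Across genes, which are not independent replicates, the log2 fold changes correlated with r = 0.47.

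XBP1 fell in SD rats by 1.17 (adjusted p = 0.02), with 25 to 63.6 CPM over 6 treated rats (median 37.6) and 92.5, 112 and 81 with vehicle. ABCA1 fell by 1.39 (adjusted p = 0.012), SKI by 1.94 (adjusted p = 0.014), TGFBR2 by 1.42 (adjusted p = 0.015) and SMAD4 by 1.20 (adjusted p = 0.063). WAP rose by 4.43 (adjusted p = 0.0031), CSN1S1 by 3.86 (adjusted p = 0.012) and CXCL2 by 2.53 (adjusted p = 0.043). ESR1 stood at 8.47 to 42.4 CPM (median 13.8) with TGFBRi against 37.8, 47.7 and 33.8 and did not pass (log2 fold change -1.02 ± 0.44, SE, adjusted p = 0.11), nor did PGR (-0.87 ± 0.62, SE, adjusted p = 0.32). CXCL6, which fell in ACI rats, rose in SD rats by 2.58 (adjusted p = 0.084), with 9.88 to 201 CPM over treated rats, and the difference between strains did not pass (-4.48 ± 1.29, SE, adjusted p = 0.25).

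The strain difference passed for 20 of 13855 genes (0.144%), 15 (0.108%) with the higher fold change in ACI and 5 (0.0361%) with the lower. By the naming rule these were B3GALT2, a galactosyltransferase (difference 3.68 ± 0.53, SE, adjusted p = 0.014), MRPL1, a mitochondrial ribosomal protein (2.60 ± 0.38, SE, adjusted p = 0.014), and EIF3J, a translation initiation subunit (1.19 ± 0.22, SE, adjusted p = 0.08), the last lost when ACI15, ACI16, ACI7, ACI8 or ACI9 was left out. MRPL1 stood at 1.15 to 2.56 CPM over the treated SD rats and at 20, 12.8 and 19.9 with vehicle. DESeq2 gave 223 genes, and leaving out any 1 of the ACI rats left 3 to 14. The strains also differed in age at dosing, which cannot be told apart from strain.

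**Figure D5:**
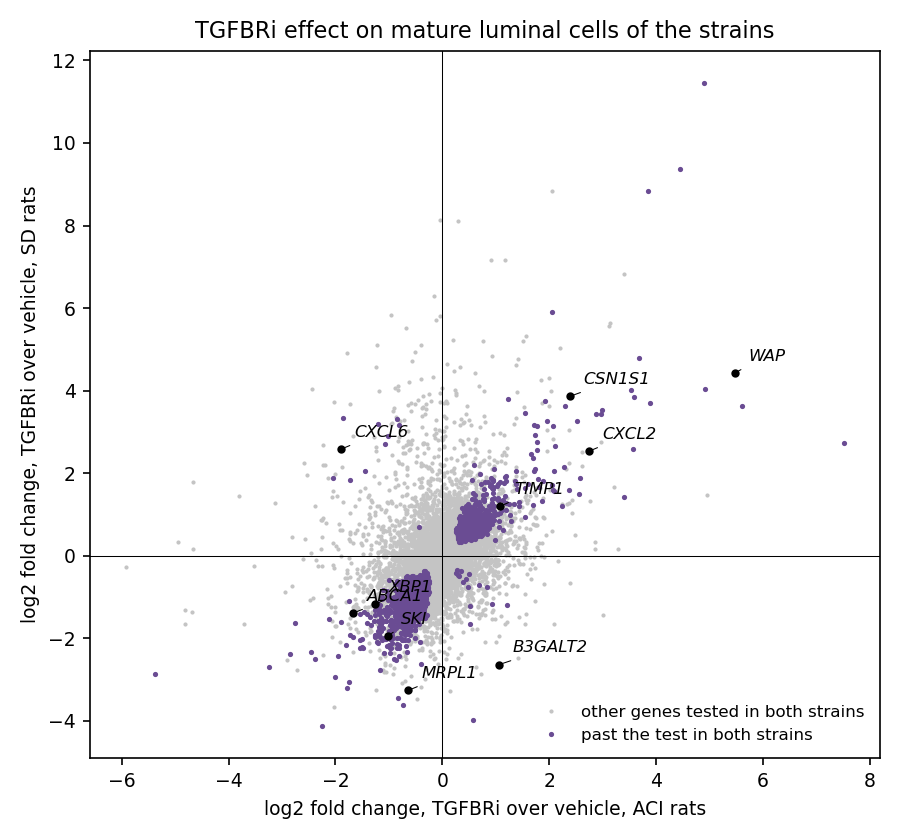
Log2 fold change of TGFBRi over vehicle in ML cells of ACI rats (horizontal axis) and SD rats (vertical axis) for 12494 genes, those past the test in both strains in purple. WAP, CSN1S1, CXCL2 and TIMP1 are above 0 and XBP1, ABCA1 and SKI below 0 in both strains, and CXCL6 is below 0 in ACI and above 0 in SD rats.

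Bulk RNA-seq of CD24+CD29low cells of other young ACI rats at day 0 (3 rats per group) holds ML and LP cells together, in which fewer cells of a type and less RNA per cell cannot be told apart. There 153 of 15181 genes (1.01%) passed an adjusted p of 0.05 (limma), 125 higher (0.823%) and 28 lower (0.184%). The fit took its spread from 18 luminal samples, and the day 7 sample LD2LR among them is vehicle by its title but treated by its description and was kept as vehicle. The 6 day 0 samples alone gave 1669 genes. Among 2752 ML calls measured there, 4 passed, all named after their values were seen. AQP3 and GPX3 had the same direction, while LTBP2 (ML 1.53, bulk -3.62) and RASSF6 (ML -0.51, bulk 1.86) had opposite ones. Of the milk genes, WAP (1.36, SE 1.01), CSN1S2A (0.94), CSN2 (0.34), CSN1S1 (0.23, SE 0.61), CSN3 (-0.02), CSN1S2B (-0.39) and LALBA (-0.62) did not pass in bulk. Nor did ESR1 (0.13), PGR (-0.74), GHR (-0.28), IGF1R (-0.23), XBP1 (-0.14), GATA3 (0.13), FOXA1 (0.58), TGFBR2 (0.64) or SMAD4 (-0.05), which were lower in ML cells. UPK3A was called lower in bulk (-6.99, limma adjusted p = 0.017), while no uroplakin was called in ML cells. Of 1623 genes higher in ML cells, 29.1% had a bulk fold change over 0, and of 1129 genes lower in ML cells 65.6% had, beside 62.3% of all genes. Treated rats LD7L and LD7R had 10192039 and 8922897 recovered reads, under all other bulk luminal samples. They nevertheless held the most genes above 0, 15060 and 15143. The third treated rat, LD10R, had 12976, and vehicle rats LD3L, LD3R and LD4R had 13296, 12100 and 12096. The part of this in the bulk calls and signs was not tested. The limma count went to 0 without vehicle rat LD3R or LD4R (2030 and 2057 genes at an unadjusted p under 0.05) and to 2358 without treated rat LD10R, and edgeR on the recovered reads of all samples called 3.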

How the data were processed

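Single-cell libraries (10x 3′ v3) of sorted mammary cells were processed by the authors with Cell Ranger 4.0.0 on rn6 and Seurat 4.0.0 (versions from the submitters' processing notes), and deposited as UMI counts per gene and cell after removal of genes in under 10 cells and of cells with under 100 genes, over 15% mitochondrial UMIs, any Ptprc or under 2 keratin UMIs. Bulk values were deposited as a signal, counts normalised by size factors (STAR 2.5.1b, HTSeq and DESeq2 1.30.1 per the labels); division by their steps recovered whole reads for 100% of values (tolerance 0.001), and limma 3.58.1 was run on log2(value + 1) over 18 luminal samples with genes summing to at least 10.

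UMIs were summed per rat and class, genes with at least 10 UMIs were kept, and edgeR 4.0.16 (TMM, quasi-likelihood, adjusted p of 0.1) was run in R 4.3.3, since cells of a rat are not replicates. The interaction of ML and LP cells had the rat as a replicate block, since both classes came from the same animal. Their deviations from group means correlated at 0.242 to 0.468, highest with the own rat in all 6, a ranking that such centring favors. Shares were compared by exact permutation tests. No doublet was removed; Scrublet called 2 to 18 cells per library, so the 6% of highest score were left out as an alternative. The other alternatives were DESeq2 1.42.0, other size factors, filters and cell rules, thinned sums and leaving out each rat. Scripts were tested on simulated data.

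Named were the genes of the rule and of the lists, the 10 per direction of largest fold change past the test with a mean of at least 20 UMIs per rat and groups that did not overlap, and the 20 of highest ML over LP ratio; a few of these genes are not reported here. The members and lists were chosen with earlier results of these data known. Separate rats were separate samples, and intervals of counts cover counting error only. RefSeq promoters came from GRCr8. No deposited column of per-sample values was left unmapped.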

Additional observations from a re-analysis of the deposited data

Results flagged for a closer look

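The effect of TGFBRi differed between ML and LP cells of the same rats for 437 genes in the test of the difference itself. The log2 fold change was higher in ML cells by 3.24 for WAP, 3.21 for CCN2, 2.53 for CYP24A1, 2.49 for DEPTOR (an inhibitor of mTOR), 2.23 for LTBP2, 2.00 for MPPED2, 1.97 for ST6GAL1 (a sialyltransferase), 1.94 for FUT8, 1.80 for DOCK3 and 1.76 for LSMEM1. The difference (ML minus LP) was -4.12 for CXCL6, -2.50 for CXCL3, -2.16 for ASPM, -2.05 for UBE2C, -1.79 for CSF1, -1.79 for CLCF1, -1.68 for HMMR, -1.51 for NEURL3, -1.51 for KIF23 and -1.47 for TIMP1. Of 8 alternatives, the call was lost under 6 for MPPED2, 5 for HMMR and KIF23 and 4 for ASPM, UBE2C and CSF1, left-out rats among them, and under 3 or fewer for the others.

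The effect differed between ACI and SD rats for 20 genes, with differences (ACI minus SD) of 3.68 for B3GALT2, 2.60 for MRPL1 and 1.19 for EIF3J, the last lost under 5 of 7 alternatives. In SD rats, 1 of 6 treated animals stood apart from the other 5 in CSN1S1, at 5464 CPM beside a median of 1555. Chance sets 1 sample apart in about 1 of 20 groups, and 8 groups were looked at.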

How the results depend on the processing

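In ML cells, 48 of 74 named calls held under all alternatives, and none of the calls turned its direction. The count of genes, 3437, ranged from 1837 (without vehicle rat ACI7) to 3534 over left-out rats. For ML minus LP, 437 genes became 29 with no replicate block, 138 with DESeq2 and the block, and 227 (without ACI16) to 476 over left-out rats, with 258 without ACI12. For ACI minus SD, 20 genes became 223 with DESeq2 and 3 to 14 over left-out ACI rats. In bulk, 153 genes became 1669 with day 0 samples alone, 13 with a pseudocount of 0.1 and 3 with edgeR on recovered reads, and 0 to 2358 over left-out rats (38 without LD3L, 11 without LD7L, 3 without LD7R). The share of ML cells, 2.23 points higher with TGFBRi, was -1.06 under a stricter rule and -6.06 to 10.5 over left-out rats, and the cycling difference, -2.83 points, was -8.62 with 3 or more genes, -3.54 to -1.45 over left-out rats (-1.45 without ACI16) and 0.708 with 9 mitotic genes, chosen after seeing the data. The ML minus LP difference of KRT8, which was not called, ranged from -0.01 to 0.18 over left-out rats. The causes were not tested. Depth differed between rats, and sums thinned to 4790375 UMIs gave 2972 genes. With 3 rats a group, an exact permutation test cannot go below 0.1.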

Other observations

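ML cells differed most among themselves in a few genes. After thinning to 4061 UMIs, the variance of UMIs per cell divided by its mean had a median of 1.07 over 2373 genes (mean over 6 rats). It was 33.6 for CSN1S1, 30.1 for the chemokine CXCL1, 22.9 for FCGBP, 19.9 for LALBA and 15.8 for CLCA1. The immediate early genes FOS, FOSB and JUN had 23.9, 21.5 and 18.9.

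The top 5% of cells in a rat held 81.4% to 98.2% of FCGBP UMIs and 56.2% to 72.4% of CXCL1 UMIs. They held 13.1% to 15.7% of PRLR UMIs and 20.3% to 25.6% of CITED1 UMIs. All 3 of PRLR, CITED1 and FCGBP belong to the rule, so that their spread over the chosen cells is a description of that choice.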
